A study of Mus musculus with 6 samples.

Results

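The genes described here encode 3 feedback inhibitors of cytokine signaling (Socs3, Socs1 and Cish), the transcription factor Stat3, 4 receptor subunits (Il6st, Il6ra, Lifr and Osmr) and the cytokine Lif. They are 9 of the 17554 genes in the deposited table, taken by gene symbol, and each symbol matched 1 row. The set was chosen by measured values, since it was named with the expression of these genes in the same control and mutant samples already known. For that reason the difference of each of the 9 genes between the genotypes is given as a description, with its standard error and without a p-value.

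The corneal epithelial layer was separated from C57BL/6 mice of 2 months of age, and the RNA of all its cells was sequenced together, in 3 control samples labelled WT and 3 mutant samples labelled Rela-/-. The mutant mice were Krt14-Cre; Rela f/f, in which a recombinase driven by the keratin 14 promoter removes the floxed part of Rela, the gene of the RelA subunit of canonical NF-κB. The study's lineage tracing placed the activity of this Cre in the epithelium of the cornea and limbus, in conjunctiva and meibomian glands, and also in skin, oral mucosa and trachea, so the deletion was not limited to the cornea. The labels describe the control mice as wild type and do not say whether they carried the floxed allele or the Cre. No batch or date is given by the labels.

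Cytokines of the interleukin 6 family bind receptors that share the subunit gp130, encoded by Il6st. Gp130 pairs with a second subunit that depends on the cytokine, JAK kinases bound to the receptor phosphorylate STAT3, and STAT3 enters the nucleus and switches on genes that include its own inhibitor, Socs3. SOCS proteins bind the kinases or the receptors and end the signal, and in the cornea interleukin 6 is known as a factor of epithelial repair.

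The promoters of Socs3 and Cish are shown because the capitals mark where a STAT motif lies in them. The motif searched was TTCNNNGAA, which reads the same on both strands, and the NF-κB consensus motif was searched on both strands as well. RefSeq windows of GRCm38.p6, from 250 bases before to 50 bases after a transcription start, matched all 9 genes, with 2 windows for Lifr and 1 for each other gene. The Socs3 window lies on the minus strand at chr11:117969317-117969616 and the Cish window on the plus strand at chr9:107296409-107296708.
Socs3: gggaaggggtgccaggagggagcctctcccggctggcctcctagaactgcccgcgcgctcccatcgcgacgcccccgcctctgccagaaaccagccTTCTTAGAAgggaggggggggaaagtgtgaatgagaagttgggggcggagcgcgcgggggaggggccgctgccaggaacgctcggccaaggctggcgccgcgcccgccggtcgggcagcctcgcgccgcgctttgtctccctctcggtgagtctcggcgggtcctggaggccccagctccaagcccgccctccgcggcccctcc
Cish: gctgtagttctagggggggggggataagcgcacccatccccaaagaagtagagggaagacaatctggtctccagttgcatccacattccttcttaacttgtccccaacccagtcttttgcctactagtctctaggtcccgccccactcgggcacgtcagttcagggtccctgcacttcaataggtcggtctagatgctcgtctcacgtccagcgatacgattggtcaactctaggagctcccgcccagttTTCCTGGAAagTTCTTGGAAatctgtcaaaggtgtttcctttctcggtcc
Socs3 held 1 STAT motif, which began 154 bases upstream of this start, and Cish held 2, which began 0 and 11 bases downstream of its start. Neither motif was found in the windows of the other 7 genes, and the NF-κB motif was found in none of the 9 genes, which says only that these letters are not in these windows. Of all 32851 windows of this length, 8.3% held at least 1 STAT motif, 0.457% held 2 or more, and 4.51% held the NF-κB motif. RefSeq extends Socs3 to position 117970336, upstream of the start used for its window. It also begins Lifr at 7090610, upstream of both Lifr windows, which begin at 7129322 and 7140292. Osmr, on the minus strand, extends to 6874968, upstream of its window at 6874264 to 6874563. The bases beyond the windows were not searched.

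Total expected counts of the samples ranged from 19492942 to 19733834, and expected counts are estimates in which a read that fits several genes is divided among them. Precision was therefore set by the number of samples and, for the lowest genes, by their counts: 3 counts, taken as the floor of detection, equal 0.152 to 0.154 CPM in these libraries, a limit for counting error only. FPKM (fragments per kilobase of transcript, scaled to the library total) takes out transcript length, and levels of different genes were compared on this scale only. The FPKM of Rela was 34.9 ± 1.53 in WT and 5.39 ± 0.412 in mutant mice (SD, n = 3 each), with 230 to 270 counts left in each mutant sample (edgeR adjusted p = 5.5e-07). Of 6 markers of corneal epithelium, Krt14 rose by 3.32 on the log2 scale and Aldh3a1 fell by 0.25 (edgeR adjusted p = 1.06e-05 and 0.0466), while Krt12, Pax6, Krt5 and Tkt did not pass. On the second principal component, which held 11.6% of the variance, mutant sample 1 lay at 24.1 and mutant samples 2 and 3 at -9.53 and -20.6.

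Socs3 showed the widest difference of the 9 genes. Its protein blocks JAK kinases bound to gp130 and its transcript is a textbook early product of STAT3. Socs3 (gene 12702) had 20, 10 and 13 counts in WT mice against 1591, 1353 and 1094 counts in mutant mice. The lowest mutant sample was far above the highest control sample, and mutant sample 1 was the highest. The FPKM was 0.267 ± 0.0929 in control and 25.0 ± 4.76 in mutant mice (SD, n = 3 each), and the log2 fold change was 6.54 (standard error 0.23), a 93-fold difference. From the summed counts alone the ratio was 93.7, with an exact 95% counting interval of 69.5 to 130 that leaves out the spread between mice. In bulk RNA a change in the number of cells that express a gene and a change in the RNA per cell cannot be told apart. The deposited gene model of Socs3 lies on chromosome 11 of GRCm38, runs from 117966079 to 117973506 and is given on the plus strand, while RefSeq places the gene on the minus strand and ends it at 117970336. None of the exon bases of Socs3 in GENCODE overlap another gene and none of its 50-base windows occur in transcripts of another gene. This check covered the GENCODE transcripts only and not the longer deposited gene model from which the counts come.

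The other inhibitors differed less. Socs1 (gene 12703, chromosome 16, 10783808 to 10785536), which acts on JAK kinases and is best known for ending interferon signals, had 33, 37 and 41 counts in WT mice against 74, 62 and 74 in mutant mice. The groups did not overlap, and the log2 fold change of Socs1 was 0.91 (standard error 0.195). Cish (gene 12700, chromosome 9, 107293010 to 107302784), a product of STAT5 signaling that binds receptors, had an FPKM of 12.6, 9.71 and 9.43 in WT mice against 14.2, 15.9 and 13.9 in mutant mice. The groups of Cish did not overlap either, although control sample 1 came close to the lowest mutant sample, and the log2 fold change was 0.47 (standard error 0.115). The exons of Cish overlap those of 2 genes on the opposite strand, Gm17040 and Gm17041, over 11.5% of their bases, and without a stated strand of the library their reads cannot be told apart. Of the summed FPKM of Socs1, Socs3 and Cish, Socs3 held 2.58%, 1.66% and 2.1% in WT mice against 63.3%, 57.6% and 54.5% in mutant mice. Cish thus gave most of this sum in control mice, and Socs3 gave most of it in mutant mice.

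**Figure D1:**
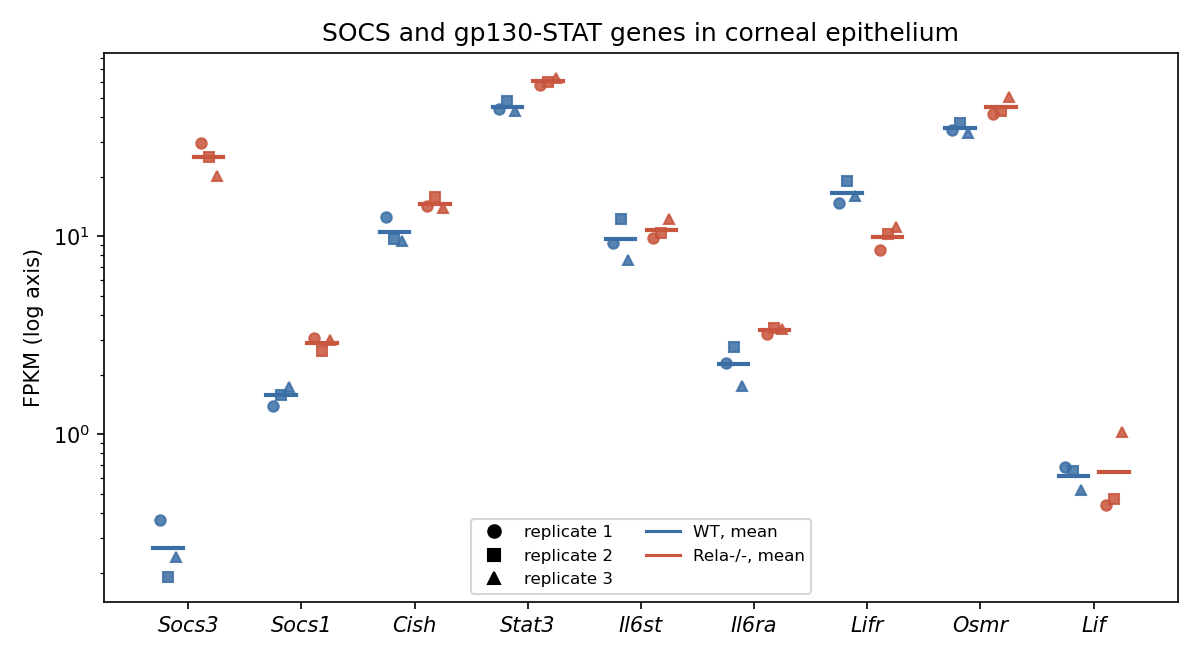
FPKM on a log axis of each of the 9 genes, by sample, in WT (blue) and Rela-/- (red) mice, with replicates as symbols and the group means as lines. Socs3 moves from the lowest mean of the 9 genes in WT (0.267) to 25.0 in Rela-/- mice, Lifr is lower in each Rela-/- sample, and the groups of Il6st and Lif overlap.

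Stat3 (gene 20848, chromosome 11, 100886806 to 100939579), which encodes the factor that carries the gp130 signal to the nucleus, was the most abundant of the 9 genes in both groups. It had an FPKM of 43.8, 48.2 and 42.8 in WT mice against 58.4, 60.3 and 63.1 in mutant mice. Each mutant sample was above each control sample, and the log2 fold change was 0.43 (standard error 0.0725). The FPKM of Socs3 amounted to 0.6% ± 0.228 of that of Stat3 in control mice and to 41.5% ± 9.44 in mutant mice (SD, n = 3 each). Within the mutant group Socs3 was highest in sample 1 and lowest in sample 3, and Stat3 the reverse. This is the order of 3 samples only, in which Stat3 spanned just 58.4 to 63.1, and nothing is read from it.

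Among the receptors the shared subunit differed least. Il6st (gene 16195, chromosome 13, 112464070 to 112506860), which encodes gp130, had an FPKM of 9.29, 12.3 and 7.58 in WT mice against 9.81, 10.4 and 12.3 in mutant mice. The mutant samples lay within the range of the WT samples, the log2 fold change was 0.15 (standard error 0.151), and it ranged from 0.01 to 0.35 when 1 sample was left out. Il6ra (gene 16194, chromosome 3, 89869324 to 89914053), whose product binds interleukin 6 itself, had an FPKM of 2.28, 2.75 and 1.75 in WT mice against 3.2, 3.46 and 3.42 in mutant mice. The mutant samples lay close together above the WT samples, and the difference was 0.57 on the log2 scale (standard error 0.154).

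The subunits for leukemia inhibitory factor and oncostatin M differed in opposite directions. Osmr (gene 18414, chromosome 15, 6813568 to 6875249), the partner of gp130 for oncostatin M, had an FPKM of 34.6, 37.3 and 33.5 in WT mice against 41.3, 43.0 and 50.4 in mutant mice. Osmr was higher in each mutant sample than in each WT sample, by 0.36 on the log2 scale (standard error 0.0855). The deposited table gives Osmr and Il6ra on the plus strand, as it does Socs3, and RefSeq places them on the minus strand. Lifr (gene 16880, chromosome 15, 7090615 to 7198400), the partner of gp130 for LIF, had an FPKM of 14.8, 19.1 and 16.0 in WT mice against 8.49, 10.3 and 11.1 in mutant mice. Lifr was lower in each mutant sample than in each control sample, at a log2 fold change of -0.90 (standard error 0.108), so it was the 1 gene of the 9 with a clearly lower level in mutant mice. The FPKM ratio of Osmr to Lifr was 2.34, 1.96 and 2.09 in WT mice against 4.87, 4.19 and 4.53 in mutant mice. The ratio of Lifr to Il6st was 1.75 ± 0.309 in control and 0.92 ± 0.062 in mutant mice (SD, n = 3 each), with all 3 mutant values below 1 and all 3 control values above it.

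RSEM also assigned the reads of Lifr to transcripts of a shorter mean length in mutant mice. The count of a gene divided by its FPKM follows the mean length of the transcripts to which RSEM assigned its reads, and it was scaled by the same quotient of 733 genes with 1 transcript. For Lifr, which has 13 transcripts in the deposited table, this length was 102%, 97.3% and 100.8% of the control mean in WT mice against 90.7%, 89.7% and 89.1% in mutant mice. The groups did not overlap. Among 6603 genes with 2 or more transcripts, an FPKM of at least 5 and at least 100 counts in every sample, the groups did not overlap in 13.6%, and in 21 genes, Lifr included, they did not overlap and the mutant mean was as low as that of Lifr or lower. For Stat3, Il6st, Osmr and Cish every sample lay within 1% of its control mean, and the other 4 genes were below these minimum values. The fall of Lifr is therefore smaller in FPKM, from a mean of 16.6 to 9.95, than in counts. Which transcripts differed was not analysed here.

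**Figure D2:**
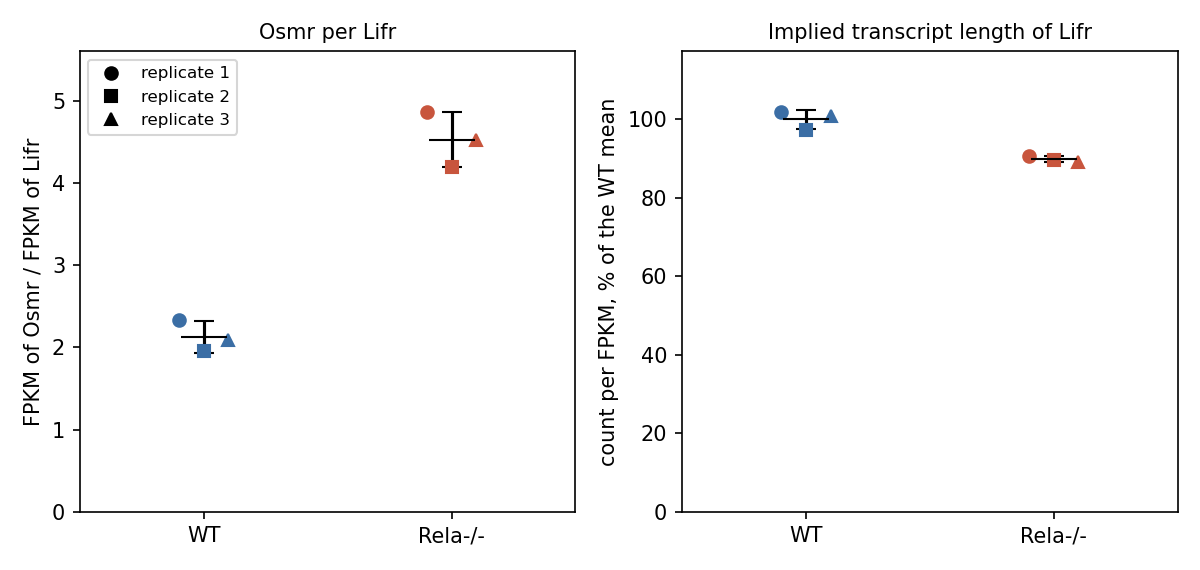
Left, the FPKM of Osmr divided by that of Lifr in each sample; right, the count of Lifr per FPKM, which follows its mean transcript length, as a percentage of the WT mean (symbols are replicates, horizontal lines are group means and error bars are 1 SD, n = 3). The ratio is 2.13 in WT and 4.53 in Rela-/- mice on average, and the implied length is 89.8% of the WT mean in Rela-/- mice.

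Lif (gene 16878, chromosome 11, 4257568 to 4272514), the ligand of Lifr, varied most of the 9 genes between the mutant samples, relative to its mean. It had 55, 52 and 42 counts in WT mice against 35, 38 and 84 in mutant mice. The mutant samples lay on both sides of the control samples, and mutant sample 3 was the highest of all 6. The log2 fold change of 0.07 (standard error 0.321) became -0.43 without mutant sample 3 and 0.28 without mutant sample 1, so no direction can be given for Lif.

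In control mice the order of the mean FPKM was Stat3, Osmr, Lifr, Cish, Il6st, Il6ra, Socs1, Lif and Socs3. The values of neighbors in this order did not overlap between samples except for Cish and Il6st, although Il6ra and Socs1 nearly touched at 1.75 and 1.74. In mutant mice Socs3 followed Osmr at rank 3 instead of rank 9, and Lifr stood at rank 6, after Il6st, with which it overlapped. Of the mutant samples, sample 3 was highest and sample 1 lowest for Stat3, Il6st, Lifr, Osmr and Lif, while sample 1 was highest for Socs3 and Socs1.

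All 9 genes passed the filter on low counts, and Socs3 also passed where at least 10 counts were required in every sample. Across the whole table, 1.37% of 12667 tested genes were called with an edgeR adjusted p no greater than 0.001 and a change of 2-fold or more, and of the 9 genes only Socs3 was. At an edgeR adjusted p under 0.05 without a fold threshold, 13.2% of all tested genes were called (7.82% higher and 5.42% lower in mutant mice), against 7 of the 9, of which 6 were higher and Lifr was lower. The FPKM of the groups did not overlap in 32.6% of all tested genes and in the same 7 of the 9. The median log2 fold change was 0.43 over the 9 genes and -0.003 over all genes. The genes were named with these differences known, so nothing is read from these counts.

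**Figure D3:**
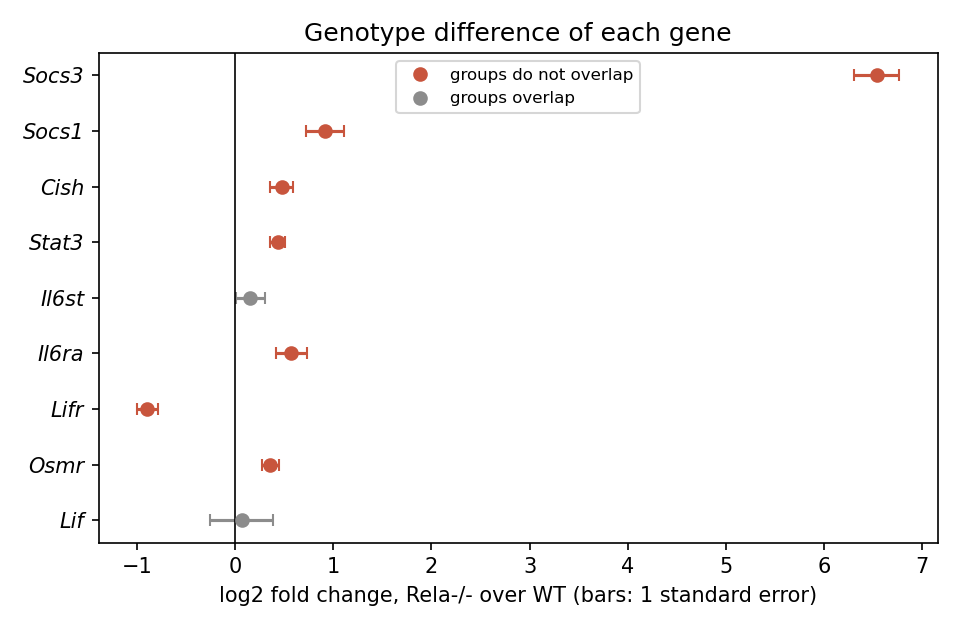
The log2 fold change of each of the 9 genes, Rela-/- over WT, with bars of 1 standard error from the edgeR fit; red points are genes whose FPKM did not overlap between the groups and grey points are genes whose FPKM did. Socs3 stands at 6.54, the 5 other red points above 0 lie between 0.36 and 0.91, and Lifr stands at -0.90.

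The rest of the pathway was read from 64 other genes in 8 lists, of which 62 were in the table and 53 had enough counts to be tested. These lists were written down with the value of Socs3 known. At an edgeR adjusted p under 0.05, 14 of the 53 genes were higher in mutant mice and 1 was lower, and the median log2 fold change was 0.06, beside 7.82% higher and 5.42% lower with a median of -0.003 over all genes. Of the 15 genes that passed, 12 stood in the list of textbook STAT3 target genes. Among these 12, Timp1, Saa3 and Lcn2 met the filter on low counts only through the mutant samples.

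Of the gp130 family ligands, 1 of 5 tested genes passed. Clcf1, which encodes a cytokine that signals through gp130 and LIFR, had an FPKM of 5.08, 3.44 and 4.63 in WT mice against 7.57, 8.67 and 8.35 in mutant mice. Clcf1 rose by 0.90 on the log2 scale (standard error 0.147, edgeR adjusted p = 0.00393), and 8.17% of its exon bases overlap AC109138.7 on the same strand. Il11 at -0.50 (edgeR adjusted p = 0.223), Cntf at -0.14 (edgeR adjusted p = 0.666) and Ctf1 at 0.02 on the log2 scale did not pass. The gene of oncostatin M itself, Osm, had an FPKM of at most 0.27 in any sample and was not tested, nor were Il27 and Ebi3 at an FPKM of at most 0.19. Il6 and Il31 were looked up but are not among the genes of the deposited table, so they have no values here.

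None of the kinases and none of the other STATs passed. The JAK genes, whose kinases are bound to the receptors, had log2 fold changes of -0.05 for Jak1, 0.06 for Jak2, -0.18 for Jak3 and -0.18 for Tyk2 (edgeR adjusted p from 0.125 to 0.716). Tyk2 had the smallest of these p-values, and its FPKM of 9.82 to 9.93 in mutant mice lay below the 11.2 to 11.5 of control mice. Of the other STATs, Stat6, which answers interleukin 4, was at 0.13 (edgeR adjusted p = 0.217), Stat2 at 0.06, Stat5a at -0.03 and Stat5b at -0.01 on the log2 scale. Stat4 had an FPKM of at most 0.04 and was not tested. The remaining receptors Il11ra1 and Il31ra were at 0.02 and -0.15 (edgeR adjusted p = 0.944 and 0.843), and Cntfr and Il27ra were too low to test.

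Of the other SOCS genes 1 of 5 passed. Socs2, a product of STAT5 and an inhibitor of growth hormone signaling, had an FPKM of 0.47, 0.23 and 0.34 in WT mice against 1.33, 0.66 and 0.99 in mutant mice. The log2 fold change of Socs2 was 1.46 (standard error 0.323, edgeR adjusted p = 0.0165), and the edgeR adjusted p was 0.0793 without control sample 2 and 0.0627 without control sample 3. Socs4 at -0.27, Socs6 at 0.22, Socs7 at -0.19 and Socs5 at 0.00 on the log2 scale did not pass (edgeR adjusted p from 0.178 to 0.994). Among 9 other negative regulators, Pias1, an inhibitor of DNA binding by STATs, passed at 0.26 on the log2 scale (standard error 0.0681, edgeR adjusted p = 0.0336). Its edgeR adjusted p was between 0.0532 and 0.116 in 5 of the 6 fits without 1 sample, the exception being the fit without mutant sample 1. Sh2b3, Ptpn1 and Pias2 were at -0.22, -0.15 and -0.12 on the log2 scale and did not pass.

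**Figure D4:**
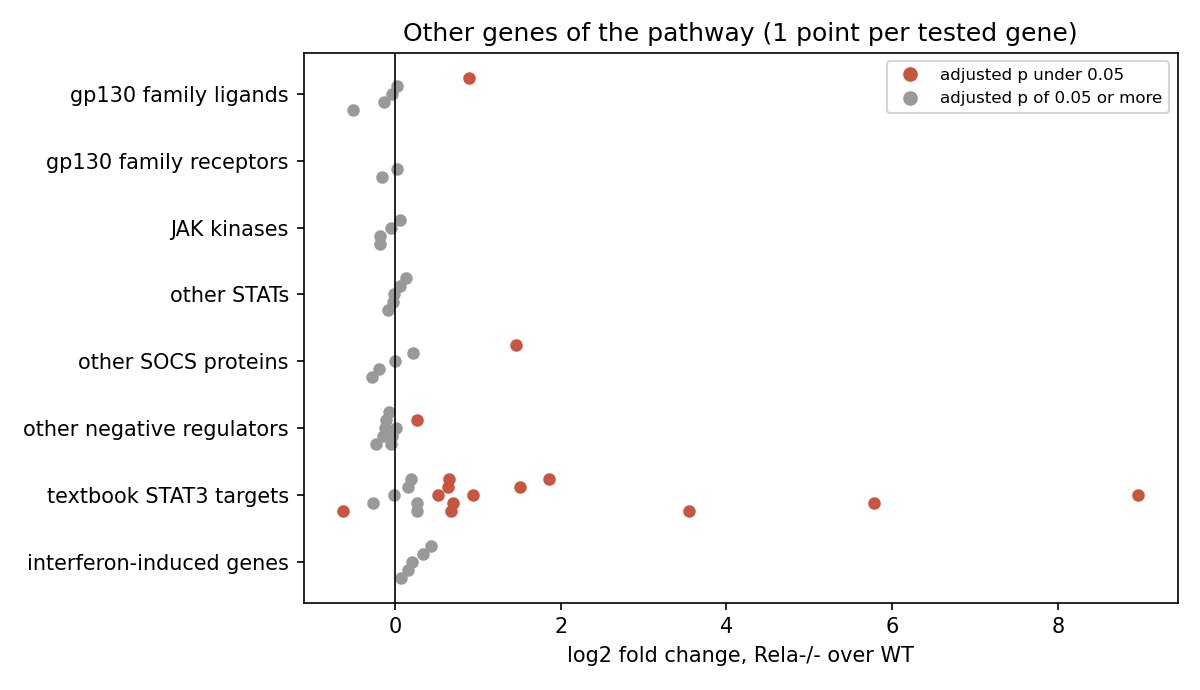
The log2 fold change, Rela-/- over WT, of the 53 tested genes of 8 pathway lists, 1 point per gene (vertical offsets only separate points), in red where the edgeR adjusted p was under 0.05. The STAT3 targets hold 12 of the 15 red points, and the JAK kinases, the other STATs, the other receptors and the interferon-induced genes hold none.

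Of 20 textbook STAT3 targets, 18 were tested, and 11 rose, 1 fell and 6 did not pass. The median log2 fold change was 0.65, beside -0.003 over all genes, of which 7.82% were higher and 5.42% lower. The median of the list includes Timp1, Saa3 and Lcn2, which met the filter on low counts only through the mutant samples. Bcl3, which encodes a nuclear protein of the IκB family, had an FPKM of 18.9, 13.1 and 16.1 in WT mice against 51.3, 53.1 and 70.1 in mutant mice. Bcl3 rose by 1.86 on the log2 scale (standard error 0.15, edgeR adjusted p = 7.59e-05), and 6.51% of its exon bases overlap Gm16175 on the opposite strand. Timp1, which encodes an inhibitor of matrix metalloproteinases, had 0 to 2 counts in a control sample and 37 to 92 in a mutant sample, a ratio of summed counts of 61.6 with an exact 95% counting interval of 20.7 to 301 (edgeR adjusted p = 4.53e-04). The control counts of Timp1 summed to 3, and without control sample 1 the ratio was 123. Timp1 met the filter on low counts only through the mutant samples, so its passing is no support. Cebpb, which encodes a transcription factor of the acute phase, had an FPKM of 9.52, 9.06 and 9.04 in WT mice against 13.9, 14.1 and 15.1 in mutant mice (log2 fold change 0.64, standard error 0.0855, edgeR adjusted p = 0.00128). Vegfa, which encodes a growth factor of blood vessels, rose from 1.73 to 2.77 FPKM in control to 4.81 to 7.62 in mutant samples (log2 fold change 1.51, standard error 0.206, edgeR adjusted p = 0.00144).

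The other 7 targets that rose, named after their values were seen, were Junb, Myc, Cebpd, Hif1a, Saa3, Lcn2 and Il4ra. For Cebpd, 15% of the exon bases overlap Spidr on the opposite strand. Saa3, which encodes an acute phase protein, had 0 counts in each control sample and 20 to 127 in a mutant sample, at least 20.6-fold higher against 3 counts per library and at least 9.79-fold higher without mutant sample 1, which held 127 of the 186 mutant counts. Lcn2, which encodes an antimicrobial protein that binds iron carriers, had 7, 2 and 7 counts in WT mice against 126, 13 and 52 in mutant mice. The ratio of its summed counts was 11.9, with an exact 95% counting interval of 7.15 to 21.3, and 6.07 without mutant sample 1. Saa3, Timp1 and Lcn2 were each highest in mutant sample 1, as Socs3 was, and nothing is read from this order. All 3 genes passed the filter only through the mutant samples, so passing is no support for any of them. They are counted among the 11 targets that rose and among the 14 higher pathway genes. Ccnd1, which encodes cyclin D1 and was also named after its values were seen, fell by 0.62 on the log2 scale (edgeR adjusted p = 0.031), and it did not pass without control sample 1, 2 or 3 or without mutant sample 2. Pim1, Mcl1, Birc5, Fos, Bcl2l1 and Fosl2 did not pass. Bcl3, Lcn2, Saa3 and Myc are known as NF-κB targets too, so the list is not specific to STAT3.

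The last list held textbook interferon-induced genes, and none of 5 tested genes passed. Gbp2, which encodes a GTPase, was closest, with an FPKM of 16.1 to 17.4 in control and of 18.4 to 23.0 in mutant mice (log2 fold change 0.34, edgeR adjusted p = 0.0559), and it passed with DESeq2 (adjusted p = 0.0352) and without mutant sample 3 (edgeR adjusted p = 0.00809). Irf1, Irf9 and Gbp3 were at 0.07, 0.16 and 0.44 on the log2 scale (edgeR adjusted p from 0.215 to 0.772).

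Of the 5 genes most like Socs3 over the 6 samples, Dmkn, Dynap and Sprr2h are given here. Likeness was the smallest distance between log2 CPM values that were centered on each gene's own mean, and the distance over the 6 samples was 1.08 for Dmkn, 1.36 for Dynap and 1.57 for Sprr2h. Dmkn, which encodes dermokine, a secreted protein of stratified epithelium, had 8 to 19 counts in a control sample and 736 to 2020 in a mutant sample. Dynap had 0 to 2 counts in a control sample and 188 to 475 in a mutant sample. Sprr2h, which encodes a small proline-rich protein of the cornified envelope family, had 0 to 2 and 140 to 425. In all 3 genes the mutant samples were far above the control samples, which follows from their selection by likeness to Socs3. All 3 genes met the filter on low counts only through the mutant samples. They share the 6 samples and the genotype contrast with Socs3, and their likeness is a description only.

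Markers of cells other than corneal epithelium were read beside these results. Of 8 leukocyte markers, 4 were tested and 1 passed, Laptm5, with an FPKM of at most 0.21 in control and 0.34 to 0.62 in mutant samples (edgeR adjusted p = 0.0451). Laptm5 had 6 to 10 counts in a control sample and met the filter on low counts only through the mutant samples, as did Dcn with 1 to 3, so passing is no support for either. The summed FPKM of the list was 85.5 to 92.0 in control and 80.2 to 125 in mutant samples and came mostly from Itgam and Cd68, while the defining markers Ptprc, Adgre1 and Cd3e had an FPKM of at most 0.18 in every sample. Of 6 keratocyte markers, 2 were tested and Dcn passed, and the summed FPKM of the list was 0.35 to 0.53 in WT samples and 0.83 to 3.29 in mutant samples. Dcn, a matrix proteoglycan gene of fibroblasts, had an FPKM of 0.08, 0.06 and 0.03 in WT mice against 1.8, 0.96 and 0.39 in mutant mice (edgeR adjusted p = 0.00507). Among the mutant samples Dcn was highest in sample 1 and lowest in sample 3, as Socs3 was. The epithelial marker Krt14 had this order too, and nothing is read from the order of 3 samples. Kera, the marker that defines these cells, was at an FPKM of at most 0.07. Of 4 conjunctival markers 3 were tested, and Krt13 fell by 0.45 on the log2 scale (edgeR adjusted p = 0.0152). Krt4 at -1.01 and Krt19 at 0.06 did not pass (edgeR adjusted p = 0.0913 and 0.835). The goblet cell gene Muc5ac had an FPKM of at most 0.01. The summed FPKM of this list was high, at 1360 to 1590 in control and 1070 to 1190 in mutant samples, and came mostly from Krt13. The 4 endothelial markers were too low to test, with a summed FPKM of at most 0.24, and of 4 epidermal markers 2 were tested and none passed, with a summed FPKM of at most 6.77. The part of these cells in the levels of the SOCS and receptor genes was not tested.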

How the data were processed

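RNA of separated corneal epithelium was sequenced by the study in 3 independent samples per genotype. The paper's methods name rRNA depletion and single-end reads of 50 bases on BGISEQ-500, while the labels name an Illumina TruSeq kit. The authors filtered reads with SOAPnuke, aligned them with Bowtie2 2.2.5 and deposited RSEM 1.2.12 expected counts, which are not normalized, and FPKM per gene, with no pooling of samples. The submitters' processing notes name mm9, but the table carries GRCm38 coordinates. Its log2 fold change, p-value and q-value columns hold the authors' DEGseq comparison, and neither these nor the group averages were used.

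Expected counts were rounded and fitted with edgeR 4.0.16 in R 4.3.3: TMM scaling, filterByExpr set to 10 counts and a total of 15, and a quasi-likelihood test of genotype. The Benjamini-Hochberg adjustment covered all 12667 tested genes, and standard errors were obtained by dividing the log2 fold change by the root of F. Distances between genes used log2 CPM with a prior count of 2. The fits were tested on simulated data. Alternatives used DESeq2 1.42.0, limma 3.58.1, other scaling and filters, a replicate block and each sample left out.

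The genes and the lists were chosen with earlier results of these data known. Named genes are the 9 genes, every gene of a list called with an adjusted p no greater than 0.001 and a change of 2-fold or more and otherwise the 4 tested genes with the smallest adjusted p, Rela, and the 5 genes nearest to Socs3; some of these are counted in their lists but not reported here by name. The comparison of transcript lengths was added after the data were seen. Promoters are RefSeq sequences of GRCm38.p6, and exon overlaps and shared windows of 50 bases come from GENCODE M21.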

Additional observations from a re-analysis of the deposited data

How the results depend on the processing

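With DESeq2, upper-quartile scaling, a minimum of 10 counts in every sample, no filter on low counts, limma on log2(FPKM + 1) or log2(FPKM + 0.1), a replicate block or 1 sample left out, Socs3 remained the 1 gene of the 9 called with an adjusted p no greater than 0.001 and a 2-fold change; with the edgeR fit and an adjusted p under 0.05 alone, 7 were called. The log2 fold changes of Socs3 (4.35 to 6.84), Socs1 (0.60 to 1.00), Cish (0.41 to 0.61), Stat3 (0.40 to 0.48), Il6ra (0.43 to 0.73), Osmr (0.28 to 0.41) and Lifr (-0.97 to -0.69) kept their signs. The lowest values of Socs3 and Socs1 came with limma on log2(FPKM + 1), where the added 1 shrinks low genes. Genes called over the whole table numbered 173, 342 with DESeq2, 114 with limma on log2(FPKM + 1), 1678 at an adjusted p under 0.05 and 36 to 193 without 1 sample, and the cause was not tested. Pathway genes that were higher, 14, numbered 17 with DESeq2, 12 with the replicate block and 10 to 15 without 1 sample. They numbered 12 with at least 10 counts in every sample. Those lower, 1 (Ccnd1), numbered 2 with DESeq2, which added Fosl2, and 0 to 1 without 1 sample. Small log2 fold changes changed sign when a sample was left out: Stat5a (-0.115 to 0.025), Stat2 (-0.059 to 0.155), Il11ra1 (-0.108 to 0.126), Irf1 (-0.073 to 0.181) and Il31ra (-0.543 to 0.092). Same-numbered samples of the genotypes did not deviate together (correlations of 0.019, 0.0483 and -0.0464), and not every sample correlated best with its own number. No pairing by number was therefore seen, but this check cannot exclude one, and the labels give no batch or date. With the block the adjusted p of Pias1 was 0.0776. Low control counts limit what can be said of the size of the change of Timp1 and Saa3. The ratios of summed counts without 1 sample were chosen after seeing the data.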
